A study of Brassica napus with 6 samples.

Results

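Nucleolar ribosome biogenesis factors are the proteins that cut, modify and fold ribosomal RNA in the nucleolus and assemble it with ribosomal proteins into the subunits. A list of 49 Arabidopsis loci of this pathway was matched by locus or symbol to array probes that the platform annotation pairs with 1 gene, and the probe with the highest mean stood for each gene. This gave 30 measured members, of 13356 genes with a probe of their own in the series. The rule used no difference between groups, but the list was chosen with earlier results of these data known, so it is described and not tested. The arrays measured root RNA of oilseed rape (Brassica napus, cultivar Nourin No.16), a relative of Arabidopsis, at an age of 4 weeks. In 3 arrays the plants had reduced glutathione (GSH, a tripeptide thiol) brushed on 3 expanded leaves daily at 100 mM, 50 µL a leaf, over 4 days. The other 3 arrays came from control plants left untreated for the same time. Per the labels, the 3 arrays within a group are biological replicates. The labels give the controls no brushed solution, so GSH and the brushing of a buffered detergent solution cannot be told apart.

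Ribosome production starts in the nucleolus, where RNA polymerase I makes a long precursor RNA. Small nucleolar ribonucleoproteins (snoRNPs) guide its methylation and pseudouridylation, the small-subunit processome folds and cleaves its front part, and a second set of factors with GTPases builds the large subunit. In roots this pathway is most active in dividing and growing cells, and its genes are often expressed together. The roles given below are those known for the Arabidopsis proteins or for their yeast counterparts. No rape gene was assigned to a probe.

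The deposited values are on a log scale from 5.09 to 12.9, with a median of 5.84, and the arrays resembled each other almost completely. A probe's 6 values typically spanned 1.91 millionths of a unit, and millionths of that unit are used for all differences below. Such differences are not fold changes, and sizes cannot be compared between probes. Array values are deviations from the mean of the 3 control arrays of the same probe. Few marker genes could be checked. Of the root list 3 of 10 genes were measured, with mean signals of 6.13 for the root hair expansin gene EXPA7, 5.95 for EXPA18 and 5.59 for the root cellulase gene GH9C1. Of the leaf list 3 of 10 were measured, at 5.75 for LHCB4.1, 6.04 for RCA and 5.64 for PRK. The table holds no detection calls, so the absence of a marker cannot be read from it. Of 14 genes of dividing cells 0 were measured, so a change in the share of dividing cells was not tested. In such bulk RNA, fewer cells of a type and less RNA per cell cannot be told apart.

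By the test across all probes, none of the 30 measured nucleolar factors passed the threshold between GSH-treated and control roots. Of the 30 members, 21 had a lower mean after GSH and 9 a higher one, where 48.1% of all probes had a lower mean. With arrays centred on their medians, which shifted every difference up by 0.598 millionths, 11 of 30 were lower, beside 18.6% of all probes. The shift rests on the probes counted, and was 0.121 millionths when the medians included the 64 array control probes. All GSH arrays lay below all controls at 5 members and above them at 0, beside 5.75% and 5.63% of all probes. Those 5 encode WDR12 and PES of one assembly complex, the large-subunit factors RRS1 and SDA1, and the processome protein MPP10. That count of 5 was 8 without control replicate 3, 9 without GSH replicate 1 and 2 with median-centred arrays, beside 9.77%, 11.9% and 1.97% of all probes.

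By limma 0 of the 30 had a Benjamini-Hochberg adjusted p under 0.05 over 22746 probes, beside 0% of all probes, and the smallest was 0.202. An unadjusted limma p under 0.05 was reached by 4 members, all lower, where 3.61% of all probes were lower at that level. The median moderated t, the difference over its moderated standard error, was -0.79 for the members and 0.05 for all probes. Without control replicate 1 the members' median was -0.30. Centring on array medians turned it to 0.35, where that of all named genes was 0.89.

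**Figure D1:**
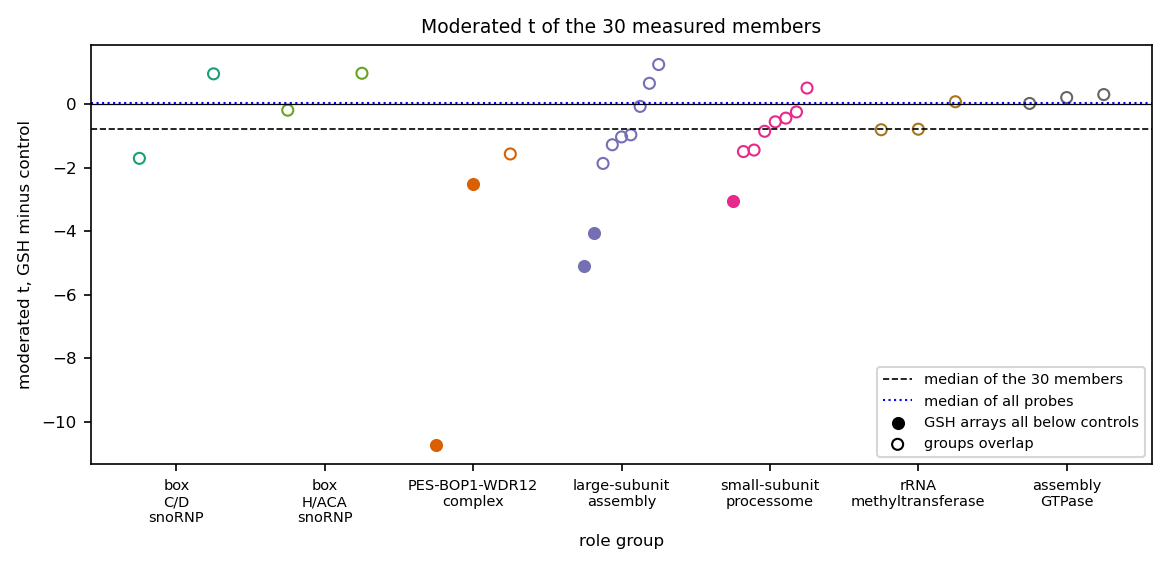
Moderated t of GSH minus control (vertical axis, no unit) for the 30 measured members by role group. Filled points are the 5 members whose GSH arrays all lay below all controls, open points overlap, and the lines mark the medians of the members (-0.79) and of all probes (0.05).

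The list is incomplete in ways that bear on its best-known parts. No probe was paired with 18 of the 49 loci alone, and these were not analysed here. They include both fibrillarin genes (FIB1 and FIB2, the methyltransferase of box C/D snoRNPs), the nucleolin gene NUC-L1, the pseudouridine synthase gene CBF5 and the nucleostemin-like GTPase gene NSN1. The locus AT3G55510 carries the symbol RBL, which the annotation uses for 2 different genes, so it was not matched. By role, 2 of 6 box C/D, 2 of 4 box H/ACA, 8 of 12 processome, 3 of 4 methyltransferase, 3 of 3 PES-BOP1-WDR12, 9 of 12 large-subunit assembly and 3 of 7 GTPase genes were measured. The counts by role below stand beside the same shares of all probes, 48.1% with a lower mean (18.6% with median-centred arrays) and 5.75% with all GSH arrays below. With that centring the median t of all named genes was 0.89, so a role median near 0 lies below it.

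Box C/D snoRNPs place methyl groups on ribosomal RNA, and NOP56 and NOP58 are among their core proteins. The NOP56-like gene AT3G12860 read -1.63, 1.63 and 0.003 millionths in control replicates 1, 2 and 3, and 0.729, -5.60 and -7.66 in GSH replicates 1, 2 and 3. Its GSH replicate 1 lay inside the control range while the other GSH arrays lay below it. The difference was -4.18 millionths (SE 2.46, limma adjusted p = 0.878, n = 3 a group), or -6.63 without GSH replicate 1 and -2.435 without GSH replicate 3. The NOP58 gene AT3G05060 read 0.291, 0.288 and -0.58 in the controls and 1.01, 0.005 and 0.155 in the GSH arrays. Here the groups overlapped, and the difference of 0.389 millionths (SE 0.406, limma adjusted p = 0.984) had the opposite sign to that of its partner. The 2 measured genes of this particle thus had means on opposite sides of their controls, and 1 of the 2 was lower with median-centred arrays as well.

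Box H/ACA snoRNPs convert uridines to pseudouridines, and GAR1 and NHP2 are small proteins of that particle. GAR1 (AT3G03920) read 0.224, -0.099 and -0.124 millionths in the controls and 2.54, 0.17 and -0.312 after GSH. A single array, GSH replicate 1, carried its higher mean of 0.80 millionths (SE 0.818, limma adjusted p = 0.981), and without it the difference was -0.07. NHP2 (AT5G08180) read 0.359, -0.227 and -0.133 in the controls and 0.308, -0.118 and -0.34 after GSH, with GSH replicate 3 the lowest array and control replicate 1 the highest, so the groups overlapped. Its difference was -0.05 millionths (SE 0.268). Of the 2 measured genes of this particle 1 had a lower mean, or 0 with median-centred arrays. Their median t was 0.40 and 1.31 in these settings.

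The small-subunit processome is the large particle that gathers on the front part of the precursor RNA around the U3 snoRNP. Of 8 measured members 7 had a lower mean, or 4 with median-centred arrays, with a median t of -0.70 and 0.12 in these settings, where that of all named genes was 0.04 and 0.89. The late factor TSR1 is counted in this role, while BMS1, the GTPase of the processome, is counted with the GTPases. Groups did not overlap at 1 of the 8 genes, beside 5.75% of all probes. That gene was AT5G66540, for MPP10, which binds IMP3 and IMP4 into a module on the U3 snoRNP. It read 0.208, -0.634 and 0.426 millionths in the controls and -0.96, -1.26 and -0.86 in the GSH arrays. Every GSH array lay below the lowest control, with a difference of -1.03 millionths (SE 0.337, limma unadjusted p = 0.0297, adjusted p = 0.675). With median-centred arrays the groups overlapped and the difference was -0.43. At a mean of 5.78 this probe was dimmer than the median of 5.84 over all probes, and whether so dim a probe reports expression was not tested.

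Both partners of MPP10 had overlapping groups. IMP3 (AT5G15750) read 0.205, 0.476 and -0.68 in the controls and -1.04, -0.886 and -0.044 after GSH, which gave -0.656 millionths (SE 0.441, limma adjusted p = 0.915). Since GSH replicate 3 lay inside the control range, only 2 of its 3 GSH arrays were below all controls. IMP4 (AT1G63780) differed by -0.15 millionths (SE 0.345), which turned sign without GSH replicate 2. The late factor TSR1 (AT1G42440), related to the GTPase BMS1, read 0.146, 1.65 and -1.80 in the controls and 0.693, -1.67 and -2.11 after GSH. The control arrays alone spanned most of that range, and the difference was -1.03 millionths (SE 1.21), or -0.20 without control replicate 2 and -1.93 without control replicate 3.

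The remaining processome members showed no separation either. KRR1 (AT5G08420, an RNA-binding protein) had its 3 GSH arrays below the control mean, and a difference of -1.13 millionths (SE 0.785), which was -0.43 without control replicate 3 and -1.755 without control replicate 2. UTP12 (AT3G21540) and UTP4 (AT4G07410, PCN), WD-repeat proteins of the particle, differed by -0.328 (SE 0.595) and -0.058 (SE 0.242). The U3-binding protein RRP9 (AT4G05410, YAO) was the member of this role with a higher mean, by 0.26 millionths (SE 0.508), and 1 GSH array at 1.22 carried it. Without that array, GSH replicate 3, its difference was -0.22.

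Methyltransferases that modify ribosomal RNA bases without a guide RNA had means within their errors of the controls. Of the 3 measured, 2 had a lower mean, or 0 with median-centred arrays, with a median t of -0.78 and 0.52 in these settings. DIM1A (AT2G47420), which dimethylates adenosines near the end of the small-subunit RNA, read 0.468, -0.255 and -0.214 millionths in the controls and 0.11, -0.404 and -0.405 after GSH. Its difference was -0.23 millionths (SE 0.291, limma adjusted p = 0.997). EMG1 (AT3G57000), which methylates a pseudouridine in yeast, read 0.191, -0.447 and 0.257 against -0.99, -0.102 and 0.161, a difference of -0.311 millionths (SE 0.396). In this case GSH replicate 1 was the low array, and without it the value was 0.03. NOP2 (AT4G26600), a cytosine methyltransferase of the large-subunit RNA, differed by 0.06 millionths (SE 0.702). The probes of DIM1A, EMG1 and NOP2, at 5.75, 5.61 and 5.71, were dimmer than the median of 5.84 over all probes. Whether they report expression was not tested.

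The PES-BOP1-WDR12 complex, needed for maturation of the large-subunit RNA, was fully measured, and 3 of 3 genes had a lower mean, or 2 with median-centred arrays. WDR12 (AT5G15550) read -0.037, -0.933 and 0.97 millionths in the controls and -6.88, -6.53 and -5.765 in the GSH arrays. The GSH arrays lay below the controls by more than the spread within either group, with SDs of 0.952 and 0.571 millionths. On the deposited log scale both group means read 6.6351. The difference was -6.39 millionths (SE 0.596, limma unadjusted p = 1.49e-04, adjusted p = 0.202). It held rank 15 of 22746 probes by unadjusted p, and leaving out any 1 array kept it between -6.86 and -5.91. With median-centred arrays the groups stayed apart at -5.795 (adjusted p = 0.341), and under quantile normalization the difference was -13.95 (adjusted p = 0.637), with groups no longer separate.

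PES (AT5G14520), the pescadillo protein, read -0.033, 0.175 and -0.143 millionths in the controls and -0.214, -0.593 and -0.692 after GSH. The groups did not overlap, but GSH replicate 1 lay just below the lowest control. The difference was -0.499 millionths (SE 0.199, limma unadjusted p = 0.0555, adjusted p = 0.745), and it turned to 0.10 with arrays centred on their medians. With the centring on the median deviation of all probes, added after seeing the data, it was -0.508. BOP1 (AT2G40360), the protein that joins the other two, differed by -2.25 millionths (SE 1.44, limma adjusted p = 0.902). Its controls spread from -2.31 to 2.12 and its GSH arrays from -3.41 to -0.431, so the groups overlapped. It was -1.20 without control replicate 1 and -3.41 without control replicate 3. WDR12 was the single subunit of the 3 with an unadjusted p under 0.05.

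**Figure D2:**
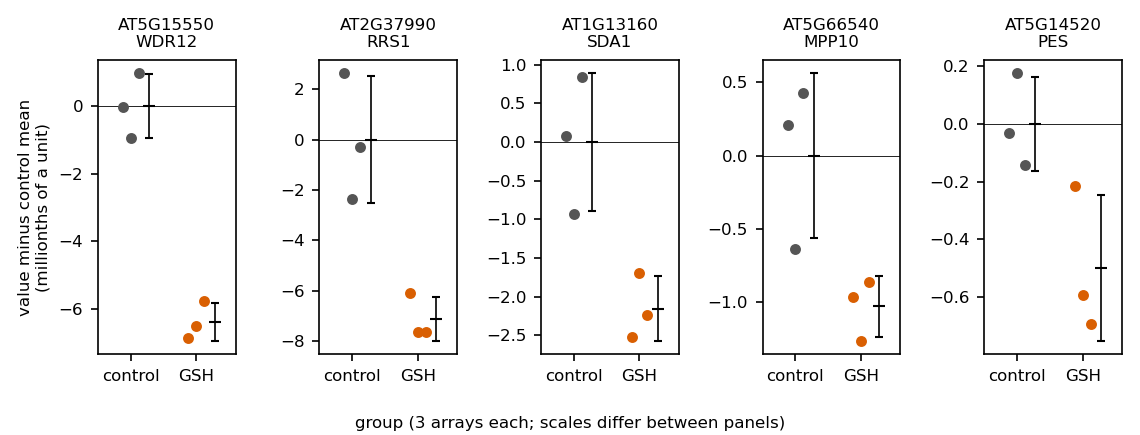
Values of the 5 members whose GSH arrays all lay below all controls, as deviations from the control mean in millionths of a log unit (vertical axes differ), 3 arrays a group, with bars for the mean and SD. WDR12 has the widest gap for its spread, and PES the narrowest, with GSH replicate 1 at -0.214 against a lowest control of -0.143.

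Large-subunit assembly factors outside that complex were the largest role group, with 7 of 9 at a lower mean, or 4 with median-centred arrays. Their median t was -1.03, and 0.34 after that centring. RRS1 (AT2G37990), which with RPF2 helps bring the 5S particle into the subunit in yeast, read 2.63, -2.35 and -0.278 millionths in the controls and -6.10, -7.63 and -7.62 after GSH. All GSH arrays lay below the lowest control, and the difference was -7.12 millionths (SE 1.40, limma unadjusted p = 0.00419, adjusted p = 0.525). These groups stayed apart with median-centred arrays, at -6.52. For RPF2 (AT3G23620) itself the groups overlapped, and the difference was -0.359 millionths (SE 0.35, limma adjusted p = 0.973). Its 3 GSH arrays, from -0.477 to -0.282, sat between the lowest control at -0.71 and the other two.

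SDA1 (AT1G13160), a factor for maturation and export of the large subunit in yeast, read 0.082, -0.925 and 0.843 in the controls and -2.52, -1.69 and -2.24 after GSH. These groups were separate as well, and the difference was -2.15 millionths (SE 0.53, limma unadjusted p = 0.0104, adjusted p = 0.576). With median-centred arrays they overlapped, and the difference was -1.55. MRT4 (AT1G25260), a relative of the stalk protein P0 that holds its place during assembly in yeast, read 1.67, -0.774 and -0.897 in the controls and 0.376, -3.34 and -1.80 after GSH. One GSH array lay inside the control range, and the difference was -1.59 millionths (SE 1.25, limma adjusted p = 0.939), or -0.71 without GSH replicate 2 and -2.57 without GSH replicate 1.

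Of the 2 measured genes for BRX1, an early large-subunit factor, AT3G15460 differed by -12.4 millionths (SE 6.67, limma adjusted p = 0.853) and AT1G52930 by -0.009 (SE 0.134). Groups overlapped at both, and the control arrays of the first ranged from -4.83 to 9.15 and its GSH arrays from -21.9 to -2.135. Left out singly, the arrays moved that first difference between -17.5 and -7.66, the ends being without GSH replicates 1 and 3. NOC2 (AT2G18220) and NOC3 (AT1G79150), whose yeast counterparts escort large-subunit precursors through the nucleus, had differences of 0.983 (SE 0.785) and -0.383 millionths (SE 0.398). EBP2 (AT3G22660), a large-subunit assembly factor in yeast, differed by 0.189 millionths (SE 0.287).

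NOC3 was the single member with 2 probes, both with a lower mean after GSH. The probe that stands for the gene, with a mean signal of 6.09, had overlapping groups. The other, with a mean signal of 5.45, read 0.915, -1.63 and 0.718 millionths in the controls and -4.32, -1.88 and -2.46 after GSH. In that probe every GSH array was below every control, and the difference was -2.89 millionths (SE 1.01, limma unadjusted p = 0.0367, adjusted p = 0.7). Its signal of 5.45 lay under the lower quartile of 5.67, and whether it reports expression was not tested.

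Assembly GTPases act as switches that check steps of subunit maturation, and the 3 measured ones had means within their errors of the controls. Of these 3, 0 had a lower mean, also with median-centred arrays, and the median t was 0.21 and 0.81 in these settings. BMS1 (AT1G06720), the GTPase of the processome, read 0.187, -0.316 and 0.13 millionths in the controls and -0.813, -0.084 and 1.49 after GSH. The GSH arrays thus lay on both sides of the controls, with a difference of 0.199 millionths (SE 0.648). For the large-subunit GTPase NOG1, AT1G50920 read -0.064, -0.021 and 0.086 against -0.22, 0.052 and 0.287, a difference of 0.04 millionths (SE 0.185). Its paralog AT1G10300 read 0.185, -0.171 and -0.014 against -0.354, 0.16 and 0.212, a difference of 0.006 (SE 0.225). All 3 probes were dim, at 5.43, 5.45 and 5.67, and whether they report expression was not tested.

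**Figure D3:**
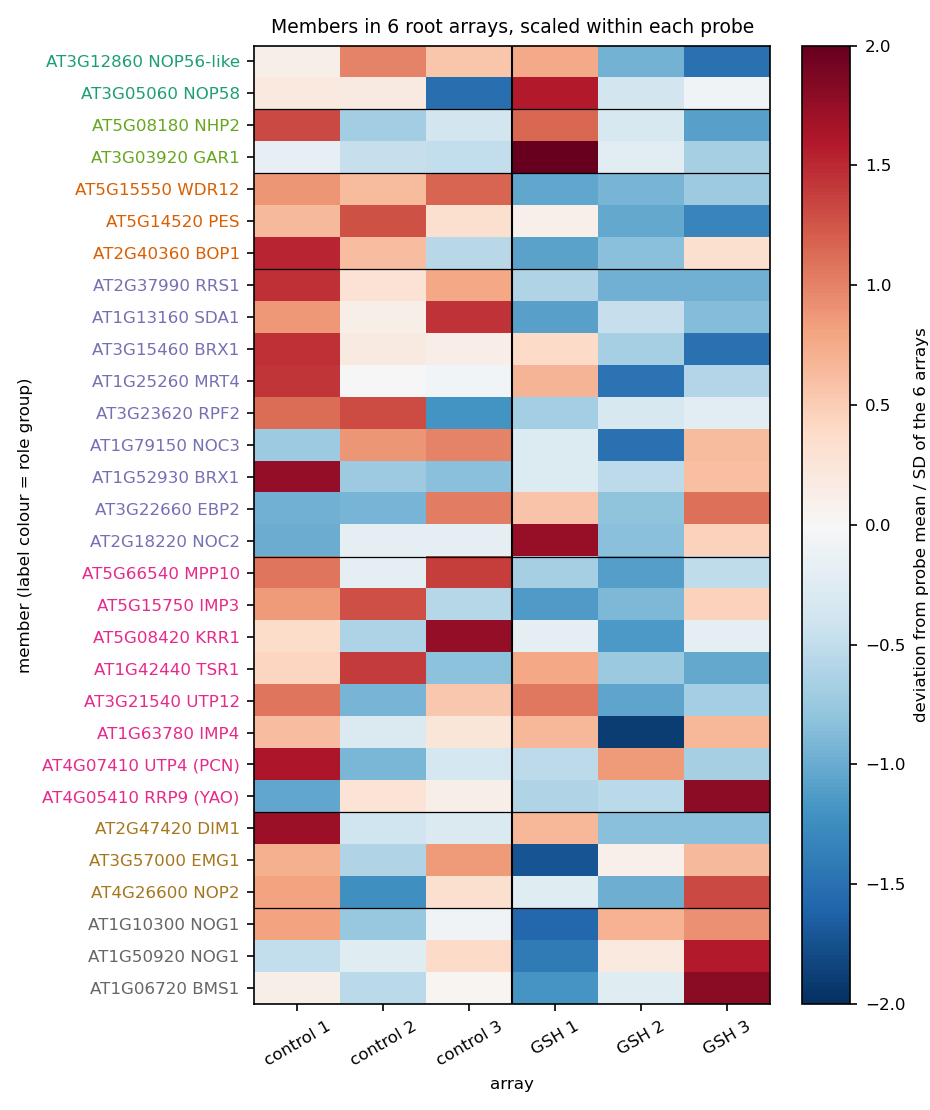
Each row is 1 of the 30 members, grouped by role and coloured by it, and each column 1 array. Colour gives the deviation from the probe's mean over its SD across the 6 arrays. Rows such as WDR12, RRS1 and SDA1 change colour at the line between controls and GSH arrays, while most rows do not, and GSH replicate 2 is the highest array in 0 rows.

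The arrays did not contribute equally to the lower means. With each probe scaled by its SD over the 6 arrays, the median position of the members was 0.80 in control replicate 1, -0.18 in replicate 2 and 0.12 in replicate 3. In GSH replicates 1, 2 and 3 it was -0.26, -0.82 and -0.21. The same medians over all named genes ran from -0.14 to 0.23, with GSH replicate 1 the highest. Control replicate 1 was the highest array at 9 members and GSH replicate 2 at 0, where these arrays were highest at 13.3% and 15.3% of all probes. In GSH replicates 1, 2 and 3, 11, 15 and 12 of the 30 members lay below all controls, beside 23.4%, 28.1% and 26.3% of all probes. Conversely 4, 0 and 8 lay above all controls, beside 32.2%, 24.6% and 24.3%. GSH replicate 3 thus held 12 members below and 8 above the controls.

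Over the 435 pairs of members the median correlation across the 6 arrays was 0.22, and 63.7% of the pairs had a correlation above 0. After the group means were taken out the median was 0.14. Since every pair shares the same 6 arrays, these are descriptions of the arrays as much as of the genes. The same values for pairs of other genes are not given here, so whether members correlate more than other genes was not tested.

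**Figure D4:**
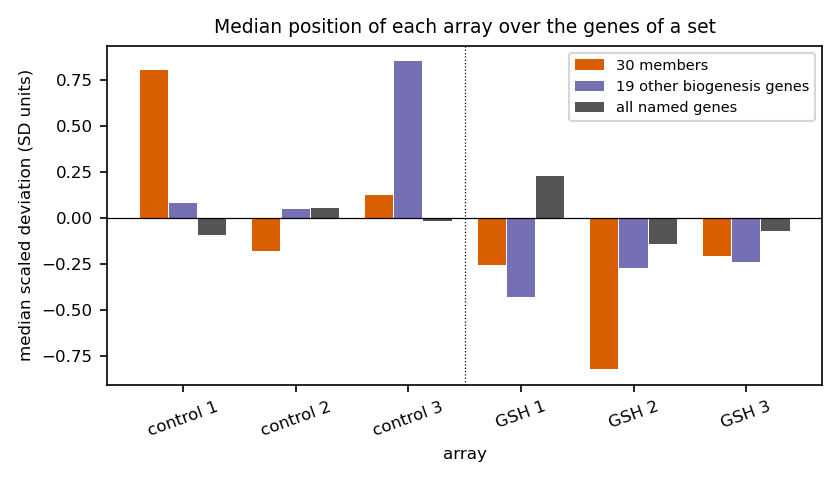
Bars give, for each of the 6 arrays, the median over genes of the deviation from the probe mean in SD units, for the 30 members, 19 other biogenesis genes and all named genes. The members are highest in control replicate 1 (0.80) and lowest in GSH replicate 2 (-0.82). The 19 other genes are at 0.08, 0.05 and 0.85 in control replicates 1, 2 and 3. In GSH replicates 1, 2 and 3 they are at -0.43, -0.27 and -0.24.

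The members differed in probe signal as well. Of 9 members above the upper quartile of probe signal (6.06), 8 had a lower mean (6 with median-centred arrays, beside 27.3% of named genes of that signal), with a median t of -1.56, and 2 had all GSH arrays below all controls. Among all 2892 named genes above that quartile, 49.5% had a lower mean and 9.3% had all GSH arrays below. Of 9 members between the median and the upper quartile 6 had a lower mean (4 with centring), with a median t of -0.43, beside 47.1% and 15.4% of named genes of that signal. Of 12 members below the median 7 had a lower mean (1 with centring), with a median t of -0.15, beside 48.3% and 14.6% of named genes of that signal. All GSH arrays lay below all controls at 2 of the 9 members between median and upper quartile and at 1 of the 12 below the median. Among named genes of those signals the shares were 4.27% and 4.73%. Whether the probes of the members report expression was not tested, for the 12 dim ones or for the others. The brightest of the 30 had a mean signal of 6.635, on a scale up to 12.9. Spearman's rho between signal and moderated t was -0.47 over the 30 members and -0.01 over all named genes. These are descriptions across probes of the same 6 arrays, and a signal is not an amount of RNA, since rape transcripts bind Arabidopsis probes unequally.

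**Figure D5:**
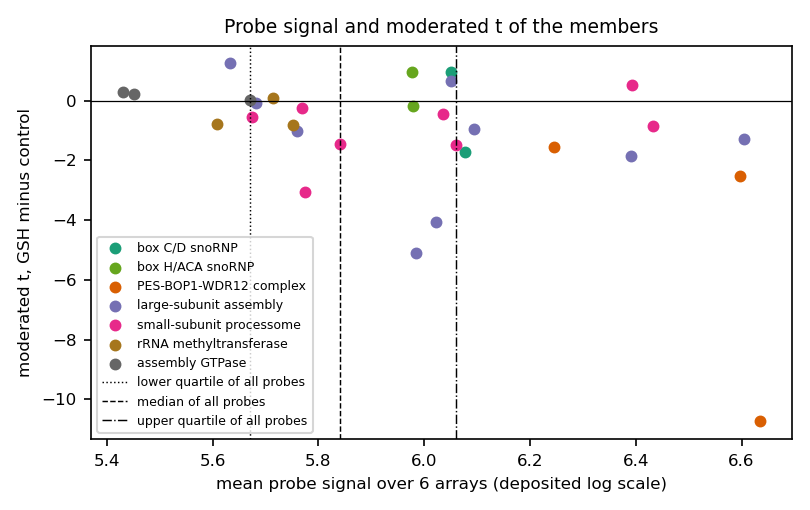
Mean probe signal over 6 arrays on the deposited log scale (horizontal) against moderated t of GSH minus control (vertical) for the 30 members, coloured by role. Vertical lines mark the quartiles of all probes, and of 9 members right of the upper quartile 8 lie below 0.

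Other genes of ribosome production were counted in the same way. This further list of 38 RNA polymerase I subunits, exosome parts, RNA helicases and late factors held 19 measured genes. Of these 11 had a lower mean and 8 a higher one, with a median t of -0.36, and 5 were lower with median-centred arrays, beside 48.1% and 18.6% of all probes. Whether this list differs from the 30 members was not tested. All GSH arrays lay below the controls at 1 of the 19 genes (5.26%, beside 5.75% of all probes) and above at 0, and 0 passed by limma, with 0 at an unadjusted p under 0.05. The RRP7 gene AT5G38720, for a processome protein in yeast, differed by -3.77 millionths (SE 1.55, limma unadjusted p = 0.0607, adjusted p = 0.754) and was that 1 gene. It read 0.385, -1.09 and 0.705 in the controls and -6.86, -1.49 and -2.96 after GSH. For the helicase gene AT5G60990 (RH10) the difference was -4.42 (SE 2.22, limma adjusted p = 0.833), for the nuclease gene AT5G41190 (NOB1) -1.90 (SE 1.44) and for the helicase gene AT4G34910 (RH16) -0.366 (SE 0.229). For the polymerase I subunits NRPA1 and NRPA2, which make the precursor RNA, the differences were 0.034 (SE 0.141) and 0.878 millionths (SE 1.08).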

How the data were processed

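Root RNA of 3 control and 3 GSH-treated samples was measured on single-colour Arabidopsis arrays. The authors deposited log2-like values, used here as deposited. The submitters' processing notes name R 2.7.2; for log base, background correction, summary and normalization the sources used here give nothing. Of 22810 probes, 64 array controls were left out. Of the 22746 tested, 13513 were paired with 1 gene, 503 with several and 8730 were unnamed here. The 2 groups entered 1 limma fit (version 3.58.1, R 4.3.3, lmFit and eBayes, with 0.83 prior degrees of freedom). P-values were adjusted by Benjamini-Hochberg over all tested probes, at a threshold of 0.05, with no filter on dim probes. The steps were tested on simulated data. Members and lists were chosen with earlier results of these data known, so lists are described by counts and medians, with no test. Values of all 6 arrays are given for the 2 members of each role with the smallest unadjusted p and the one with the highest mean. Of the other biogenesis genes, the rule named the 4 with the smallest unadjusted p. NRPA1, NRPA2 and the second probe of NOC3 were added after their values were seen. Alternatives were quantile normalization, 2 ways of centring (that on the median deviation of all probes was added after seeing the data), brighter probes, a replicate block, arrays left out in turn, other variance estimates and the dimmer probe of a gene. The number of arrays limits the precision, and array data have no depth in counts.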

Additional observations from a re-analysis of the deposited data

How the results depend on the processing

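By limma 0 members passed in each of the 15 alternatives, where 4 had an unadjusted p under 0.05 as reported. The number of probes called, 0 as reported, was 27 of 2688 under quantile normalization and 4 of the 11373 above the median signal. It was 1 with the replicate number as a block, and 0 without any single array. Quantile normalization left 3 members that vary at all, since a probe of unchanged rank takes 1 value on every array. There the median t was 0, with 1 member lower and 0 separated, the latter beside 1.04% of the 2688 probes. Of those probes 61.4% had a lower mean, but that share counts differences of rounding size, which the count of members leaves out. The median t was -1.34 among the 18 members above the median signal, 0.351 with median-centred arrays and from -0.869 to -0.299 without single arrays. Separated members numbered 2 with median-centred arrays and 5 to 9 without single arrays, beside 1.97% and 9.55% to 11.9% of all probes. As reported that share was 5.75%, so it rose over all probes when 1 array was left out. Members with a lower mean numbered 11 and 17 to 24, beside 18.6% and 46.1% to 52.3% of all probes. Centring added 0.598 millionths to every difference, but 0.121 when the 64 control probes were counted in the array medians. Centring on the median deviation of all probes, added after seeing the data, shifted differences by -0.008 millionths. It gave 22 lower and 5 separated, beside 49.2% and 5.85% of all probes, and a median t of -0.799. The numbers were not taken as pairs, since the labels give 2 groups of biological replicates and no batch. After group means were removed, control and GSH arrays of number 1, 2 and 3 correlated at -0.0188, -0.0181 and 0.103. Control replicate 2 and GSH replicate 1, of unlike number, correlated at 0.109. With 3 arrays a group these values cannot decide whether the numbers mark pairs. The block left the members' median t at -0.985.

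Signs turned in 31 of 411 values of single members, at 17 members, and 0 of these values passed the threshold. Median centring turned AT5G08180 to 0.548, AT1G52930 to 0.589, AT5G14520 to 0.0985, AT3G23620 to 0.239, AT1G79150 to 0.215, AT1G63780 to 0.448, AT2G47420 to 0.365, AT3G57000 to 0.287, AT3G21540 to 0.27 and AT4G07410 to 0.54 millionths. The added centring turned AT1G10300 to -0.0022, and quantile normalization turned AT5G15750 to 3.54. With each array left out in turn, differences spanned -0.0713 to 1.36 for AT3G03920, -0.229 to 0.13 for AT5G08180, -0.0387 to 0.0478 for AT1G52930, -0.478 to 0.479 for AT4G26600, -0.0843 to 0.169 for AT1G50920, -0.097 to 0.186 for AT1G10300, -0.320 to 0.189 for AT1G63780, -0.404 to 0.0015 for AT2G47420, -0.546 to 0.0292 for AT3G57000, -0.2195 to 0.509 for AT4G05410, -0.1885 to 0.132 for AT4G07410 and -0.449 to 0.705 for AT1G06720. Of the 30 members, 25 turned sign or moved by over 1.5 times when 1 array was left out, and 13 of these kept their sign. Those ran from -2.57 to -0.711 for AT1G25260, -1.93 to -0.203 for AT1G42440, -0.661 to -0.103 for AT1G79150, 0.290 to 1.68 for AT2G18220, -3.41 to -1.20 for AT2G40360, 0.0803 to 0.581 for AT3G05060, -6.63 to -2.435 for AT3G12860, -17.5 to -7.66 for AT3G15460, -0.792 to -0.0222 for AT3G21540, 0.055 to 0.405 for AT3G22660, -0.714 to -0.162 for AT3G23620, -1.755 to -0.4265 for AT5G08420 and -0.996 to -0.418 for AT5G15750. The other 5 are the separated members. Separate groups cannot turn sign when 1 array is left out, so for these 5 only the size of the difference could move. Of them AT5G14520, AT1G13160 and AT5G66540 lost their separation with median-centred arrays, at 0.0985, -1.55 and -0.43. Under quantile normalization AT5G15550 was at -13.95.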
